A study of Mus musculus with 3 samples.

Results

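The BCL2 family holds the genes that set whether the mitochondria of a cell release the proteins that start apoptosis. Described here are 10 of its members, chosen by name: the survival genes Bcl2, Bcl2l1, Bcl2l2 and Mcl1, the effector genes Bax, Bak1 and Bok, and the BH3-only genes Bbc3, Pmaip1 and Bcl2l11. All 10 names were found among the 47593 gene rows of the series. RNA was sequenced from 3 libraries, replicates 1 to 3 of 1 group, wild-type (WT) mouse primary neurons of the hippocampus that had been given fresh medium with B27 and penicillin-streptomycin. Growth was at 37 °C under 5% CO2, in Neurobasal to which B27 (10%) and GlutaMAX (1%) had been added, and the series design gives a treatment of 24 h. That design also names an arm given apoE particles, which was not analysed here, so no effect of apoE is described. The labels do not say whether the 3 libraries came from separate cultures, so p-values measure only the spread between these libraries, which may be technical.

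As background, survival proteins sit in the outer mitochondrial membrane and hold the effectors in check. The effectors, once active, form pores in that membrane and let cytochrome c out, which activates caspases through the apoptosome. BH3-only proteins sense stress and either block the survival proteins or activate the effectors. Neurons use this pathway during developmental culling and after loss of trophic support, and mature neurons are known to restrain it.

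Reads per gene were recovered from the deposited log2 values and totalled 18780572, 18683966 and 18885652 in replicates 1, 2 and 3. A level is given in 2 ways: as counts per 1000000 reads of the library (CPM), and as CPM per kilobase of annotated exon, which is the scale on which different genes are compared. Values after ± are SDs of recovered reads over the libraries (n = 3). Detection meant at least 1 CPM in every library on the deposited values, which 29.4% of all gene rows reached; many rows are noncoding genes and pseudogenes. All 8 neuron markers were detected, led by Mapt at 2032 ± 39.4 CPM. Of 6 astrocyte markers 5 were detected, and the list summed to 1570, 1610 and 1574 CPM in replicates 1, 2 and 3. All 6 oligodendrocyte lineage markers and all 5 progenitor and cycling markers were also detected, whereas none of 8 microglia and none of 6 vessel markers was, and Cldn5 had no reads. RNA of several cell types was thus present, and for any gene a difference in the number of cells of a type cannot be told apart from a difference in RNA per cell.

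All 10 members were detected, and together they made up 604, 563 and 585 CPM in replicates 1, 2 and 3. Per kilobase, Bax was highest and Bcl2l11 lowest. The order was Bax, Mcl1, Bbc3, Bak1, Bcl2l1, Bok, Bcl2l2, Pmaip1, Bcl2 and Bcl2l11. Most neighbours in this order differed by more than the spread between libraries, with the exception of 2 steps. Mcl1 exceeded Bbc3 by 0.07 ± 0.06 on the log2 scale and in 2 of 3 libraries, and Bak1 exceeded Bcl2l1 by 0.09 ± 0.17 and in 2 of 3 libraries. The median member lay at 20.6 CPM per kilobase, against 6.11 for the median of 13531 detected genes with a known length, and 7 of the 10 members lay above that median. Without length scaling the order changed, with Mcl1 and Bcl2l1 first and Bax in the third place, and Bak1 (57.8 ± 3.60 CPM) and Bcl2l2 (57.3 ± 1.29 CPM) could not be separated. Percentiles of detected genes given below are by level per kilobase unless CPM is named. By CPM they were 86.6 for Mcl1, 77.5 for Bax, 75.5 for Bbc3, 47.0 for Bcl2 and 29.4 for Bcl2l11.

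**Figure D1:**
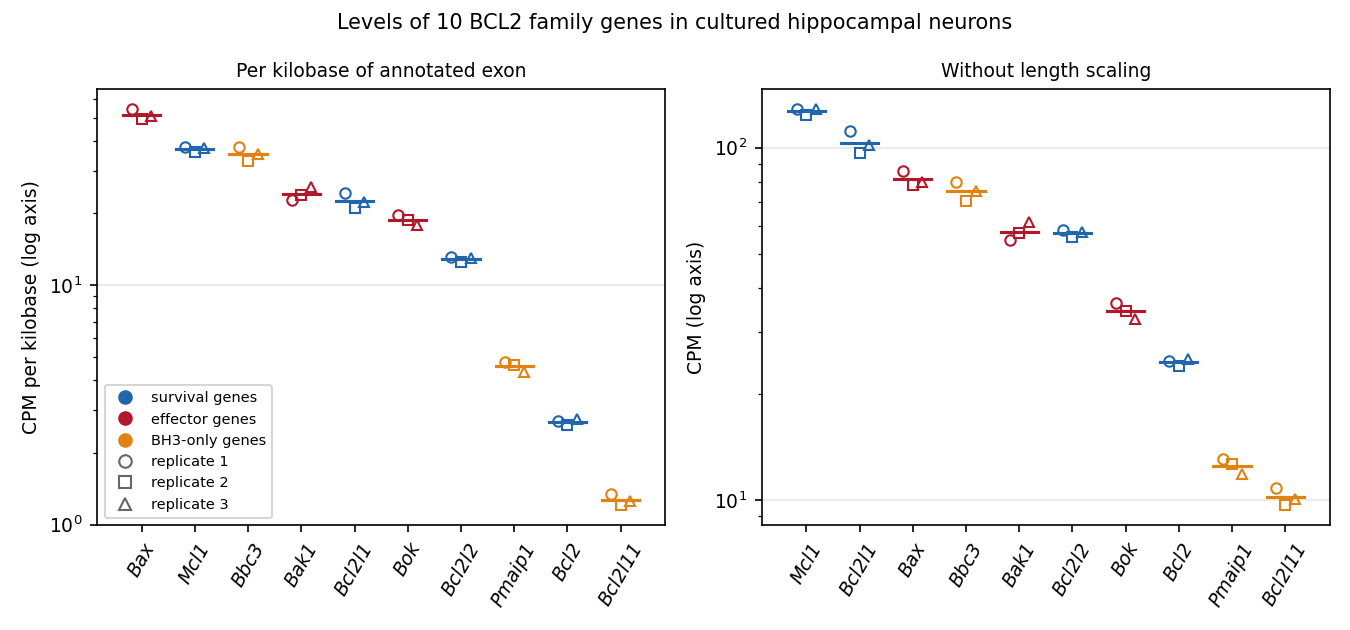
Levels of the 10 genes in each library, as CPM per kilobase of annotated exon (left) and as CPM (right), both on log axes; symbols are replicates 1 to 3, bars their mean and colours the roles. Bax leads on the left and Mcl1 on the right, while Bcl2l11 is lowest in both panels.

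Among the survival genes, Mcl1 and Bcl2l1 carried most of the reads and Bcl2 itself the fewest. Mcl1 encodes a short-lived survival protein that neuronal precursors depend on, and lies on chromosome 3 from 95658788 to 95663176 (GRCm38). It had 2421, 2310 and 2426 reads, or 127 ± 2.92 CPM and 37.2 ± 0.86 CPM per kilobase, at percentile 90.4 of detected genes. The 3 libraries were nearly level, with a range of 1.04-fold after scaling for depth. Bcl2l1 encodes BCL-XL, the survival protein that postmitotic neurons are known to need, and lies on chromosome 2 from 152780668 to 152831728. It had 2089, 1809 and 1926 reads, or 103 ± 7.30 CPM and 22.5 ± 1.59 CPM per kilobase, and was highest in replicate 1 and lowest in replicate 2. These reads belong to the whole gene, so the long and short splice forms of Bcl2l1 were not separated.

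Bcl2l2 encodes BCL-W, a survival protein of adult neurons and their axons, and lies on chromosome 14 from 54883377 to 54888234. Its 1096, 1044 and 1090 reads gave 12.8 ± 0.29 CPM per kilobase, again with little difference between libraries. Bcl2, the founding member of the family, lies on chromosome 1 from 106538178 to 106714274. It had 466, 448 and 476 reads, or 24.7 ± 0.63 CPM and 2.69 ± 0.07 CPM per kilobase, at percentile 30.1 of detected genes. Ratios between genes are given as log2 differences with 0.5 added to each level, so those with a low gene are smaller than the ratio of the levels themselves. On this scale Bcl2l1 exceeded Bcl2 per kilobase by 2.85 ± 0.09, Bcl2l2 exceeded it by 2.06 ± 0.02 and Mcl1 by 3.56 ± 0.01; with nothing added the differences were 3.06, 2.25 and 3.79. Without length scaling these 3 differences were 2.04, 1.20 and 2.34, since the annotated exons of Bcl2 span 9157 bases, most of them outside its coding length of 729 bases.

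The promoters of Bcl2, Bcl2l1 and Bax are shown because these 3 genes, often read together as a survival and death balance, differ in level here and differ in promoter letters too. Each is the 250 bases before the RefSeq start at the 5′ end of the gene (GRCm38.p6), on the minus strand, at chr1:106714291-106714540 for Bcl2, chr2:152831729-152831978 for Bcl2l1 and chr7:45466899-45467148 for Bax. Capitals mark the GC box letters GGGCGG or their reverse complement CCGCCC.
Bcl2: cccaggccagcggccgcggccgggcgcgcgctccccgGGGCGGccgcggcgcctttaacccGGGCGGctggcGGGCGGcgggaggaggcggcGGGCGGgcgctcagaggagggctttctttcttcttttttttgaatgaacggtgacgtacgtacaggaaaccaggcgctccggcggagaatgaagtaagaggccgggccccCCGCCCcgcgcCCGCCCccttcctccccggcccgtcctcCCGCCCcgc
Bcl2l1: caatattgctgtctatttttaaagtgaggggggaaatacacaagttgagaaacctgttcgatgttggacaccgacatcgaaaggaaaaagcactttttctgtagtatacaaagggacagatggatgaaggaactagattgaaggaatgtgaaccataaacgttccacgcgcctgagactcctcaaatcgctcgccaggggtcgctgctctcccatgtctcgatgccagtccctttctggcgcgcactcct
Bax: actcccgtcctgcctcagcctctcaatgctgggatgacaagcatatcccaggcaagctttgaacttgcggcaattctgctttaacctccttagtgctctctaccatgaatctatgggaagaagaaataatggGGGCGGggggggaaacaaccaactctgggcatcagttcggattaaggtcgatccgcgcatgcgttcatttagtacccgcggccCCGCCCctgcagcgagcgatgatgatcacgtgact
The Bcl2 window held 7 GC box matches and 36 CpG dinucleotides, more CpG than 97.4% of 32851 RefSeq windows of the same length. The Bcl2l1 window held no GC box and 12 CpG, and the Bax window 2 GC boxes and 14 CpG. Bcl2 had the most CpG and the lowest level of these 3, but this did not hold over all members. A Bbc3 window held 37 CpG and 7 GC boxes and the Mcl1 window 26 CpG, at 35.4 and 37.2 CPM per kilobase. Bcl2l11, the lowest member, had windows of 24 and 30 CpG. A relation of CpG to level was not tested. Windows were found for 9 of the 10 members, 14 windows in all. Of these, 10 held a GC box, against 32.7% of all windows. By gene, 7 of the 9 had at least 1 such window, and this share was not computed over all genes. The letters CACGTG, an E-box, were in 2 of the 14, at Bax and Bbc3, against 6.02% of all windows. The letters CCAAT or their reverse complement ATTGG were in 3 of the 14, at 2 genes, against 33.8% of all windows. The median member window had 18.5 CpG and 65.2% G and C, against 6 CpG and 52.4% over all windows. The windows compared with came from 27025 genes, whether detected here or not, whereas all members were detected. A comparison with detected genes only was not made. Windows of 1 gene can overlap, and a match is a description of the letters, not a bound site.

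Per kilobase, the effector genes all lay above the median detected gene, with Bax above Bak1 and Bok. By CPM, Bok was nearer the middle, at percentile 55.2 of detected genes. Bax encodes the effector that neurons are known to rely on for developmental death, and lies on chromosome 7 from 45461697 to 45466898. It had 1616, 1462 and 1512 reads, or 81.5 ± 4.08 CPM and 51.7 ± 2.59 CPM per kilobase, at percentile 93.8 of detected genes. Replicate 1 was highest and the other 2 libraries lay close together. Bax exons share 192 bases (12.2%) with Gm45808 on the same strand. That gene is not among the gene rows of the series, so how reads of this overlap were assigned is uncertain. Bak1, the other classical effector, lies on chromosome 17 from 27019810 to 27029009 and had 1025, 1068 and 1165 reads, or 24.0 ± 1.5 CPM per kilobase. It was lowest in replicate 1 and highest in replicate 3, unlike Bax. Bok, an effector-like gene found at the endoplasmic reticulum and prominent in brain, lies on chromosome 1 from 93685660 to 93695764 and had 679, 642 and 618 reads, or 18.7 ± 0.93 CPM per kilobase.

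Set against each other within a library, Bax exceeded Bak1 by 1.25, 1.05 and 0.97 on the log2 scale in replicates 1, 2 and 3, a mean of 1.09 ± 0.14. All 3 libraries gave the same direction, and without length scaling the difference was 0.49. Bax exceeded Bok by 1.44 ± 0.05, and Bok lay below Bak1 at −0.35 ± 0.16. The direction held in 3 of 3 libraries for each of these pairs. Some Bak1 exons overlap those of Ggnbp1 on the opposite strand over 437 bases. No source used here says if strand was used in counting, so reads of this overlap cannot be assigned, and Ggnbp1 itself had 27, 36 and 24 reads.

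The BH3-only genes were the most unequal group. Bbc3 encodes PUMA, a target of p53 that also responds to trophic factor loss, and lies on chromosome 7 from 16308393 to 16318205. It had 1505, 1316 and 1422 reads, or 75.3 ± 4.85 CPM and 35.4 ± 2.28 CPM per kilobase, at percentile 89.8 of detected genes and so close to Mcl1. Pmaip1 encodes NOXA, which acts mainly against MCL1, and had 245, 236 and 224 reads, or 4.58 ± 0.22 CPM per kilobase. Bcl2l11 encodes BIM, the BH3-only protein induced in neurons deprived of growth factors, and lies on chromosome 2 from 128126038 to 128162547. It had 203, 181 and 190 reads, or 10.2 ± 0.57 CPM and 1.27 ± 0.07 CPM per kilobase, at percentile 17.2. Neither Pmaip1 nor Bcl2l11 overlapped Bbc3 in any library.

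Per kilobase, Bbc3 exceeded Pmaip1 by 2.82 ± 0.09 on the log2 scale with 0.5 added, and by 2.95 with nothing added. Bcl2l11 lay below Bbc3 at −4.34 ± 0.04 and below Pmaip1 at −1.52 ± 0.06, or at −4.80 and −1.85 with nothing added. Bcl2l11 has annotated exons of 8029 bases against 2124 for Bbc3 and 2732 for Pmaip1, and without length scaling it lay below them at −2.83 and −0.28. The splice forms of Bcl2l11 were not separated either.

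Across roles, the survival genes and the effectors can be set against each other only with the length scale in view. Bax exceeded Bcl2 by 4.10, 4.01 and 3.98 on the log2 scale per kilobase in replicates 1, 2 and 3 with 0.5 added, and by a mean of 4.26 with nothing added, but by 1.70 without length scaling and by 1.95 per kilobase of coding length. Bax exceeded Bcl2l1 by 1.18 ± 0.03 per kilobase of exon, whereas it lay below Bcl2l1 at −0.34 without length scaling and at −0.031 per kilobase of coding length. Bak1 lay below Mcl1 at −0.62 ± 0.09, and Bcl2l11 below Bcl2 at −0.85 ± 0.05 (−1.09 with nothing added). Mcl1 exceeded Bcl2l1 by 0.71 ± 0.07 per kilobase of exon, but lay below it at −0.083 per kilobase of coding length. Mcl1 exceeded Bcl2l2 by 1.5, and Bcl2l2 lay below Bcl2l1 at −0.79 ± 0.07.

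Of the 16 pairs compared, the first gene was higher in 10 and the second in 6, and every pair had the same direction in 3 of 3 libraries on the exon scale. The SD of the 16 ratios ran from 0.01 to 0.16. The two-sided exact sign-flip permutation p was 0.25 for each pair (Benjamini-Hochberg adjusted 0.25 over the 16), the smallest that 3 libraries allow, so no ratio could pass a threshold of 0.05. Summed per kilobase, the 4 survival genes held 35.7%, the 3 effectors 44.8% and the 3 BH3-only genes 19.6% of the family's level. Without length scaling these shares were 53.5%, 29.7% and 16.8%, so which of survival and effector genes came first depended on the length scale.

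**Figure D2:**
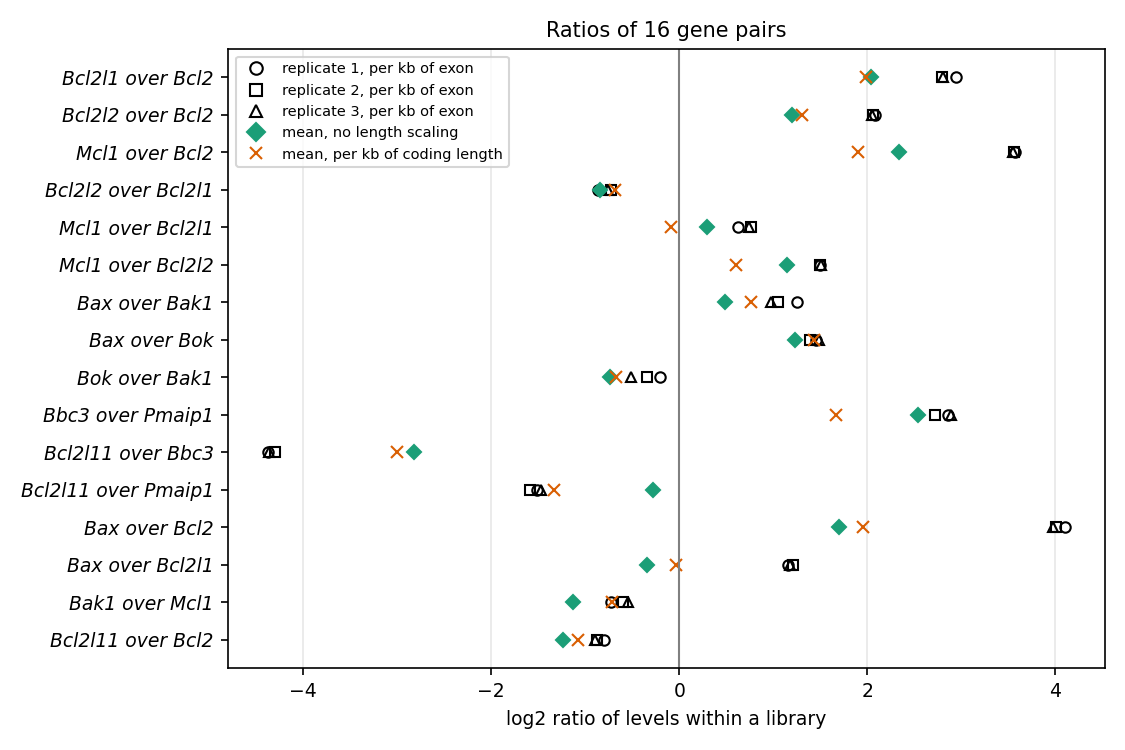
Log2 ratio of the first over the second gene of each of 16 pairs, with 0.5 added to each level, within each library per kilobase of annotated exon (open symbols, replicates 1 to 3), with the mean without length scaling (diamonds) and per kilobase of coding length (crosses). The open symbols of each pair lie on 1 side of 0, whereas for Bax over Bcl2l1 the diamond and the cross lie on the other side, at −0.34 and −0.031.

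The 3 replicates were then compared to see which members differed between libraries given the same medium. After scaling by median-of-ratios size factors, the range between libraries was 1.04-fold (Bcl2l2) to 1.14-fold (Bcl2l1), with coefficients of variation of 2.01% to 6.65%. Replicate 1 was the highest library for 7 members and replicate 3 for the other 3, and replicate 2 was the lowest for 7. Such counts were not made over all genes, so they cannot be read as particular to the members. The share of reads from mitochondrially encoded genes was lowest in replicate 1 and highest in replicate 2, at 7.13%, 8.25% and 7.61% in replicates 1, 2 and 3. Its part in the result was not tested. The summed neuron markers were 6570, 6536 and 6558 CPM. Single markers varied more than this sum, and Syn1 had 340, 315 and 388 CPM, a range of 1.23-fold after scaling for depth.

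By a Pearson chi-square test against counting error with Benjamini-Hochberg adjustment over 15131 genes, 1 of the 10 members differed between libraries, while 8.62% of all genes tested did. That member was Bcl2l1, which lay 7.08% above its mean in replicate 1 and at −6.11% and −0.97% in replicates 2 and 3 (adjusted p = 0.0045). The call was lost without replicate 1 (adjusted p = 0.29) and without replicate 2 (0.20), and was kept without replicate 3. Bbc3 came next, at 5.89%, −6.25% and 0.36% (adjusted p = 0.059), and it passed without replicate 3 (0.018). Bak1 followed at −6.11%, −0.94% and 7.05% (adjusted p = 0.078). Against the spread typical of genes of like abundance (the dispersion trend), 0 of the 10 members differed, with a lowest adjusted p of 0.76 and 1 member at an unadjusted p under 0.05, while 0.317% of all genes tested did. Of the 8 neuron markers, 6 differed beyond counting error and 1, Syn1, beyond the dispersion trend (adjusted p = 0.0088). The number of all genes beyond counting error was 1304, and it was 334 without replicate 2 and 835 without replicate 3.

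**Figure D3:**
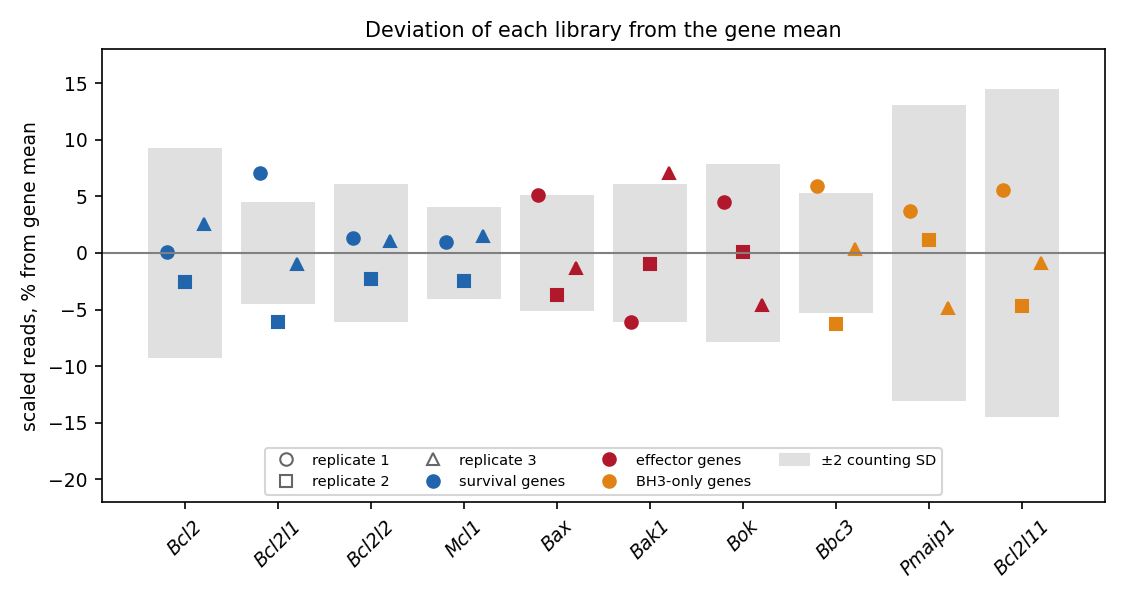
Deviation of each library's depth-scaled reads from the mean of the gene, in percent, for the 10 genes (symbols, replicates 1 to 3; colours, roles); grey bars span 2 SDs of counting error on each side of 0. Bcl2l1 reaches 7.08% in replicate 1 and −6.11% in replicate 2, outside its bar. Bak1 and Bbc3 also have points outside theirs, whereas the other members, among them Mcl1, Bcl2l2 and Bcl2, stay within theirs.

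The rest of the pathway was read from 8 further lists holding 71 genes, of which 56 (78.9%) were detected. In the variation test, 5 of the 56 that could be tested differed beyond counting error (8.93%, against 8.62% of all genes tested) and 0 beyond the dispersion trend. Among them were the transcription factor gene Jun, the kinase gene Mapk10, and Huwe1 and Usp9x, which encode a ligase and a deubiquitinase of MCL1. The adjusted p values of these genes were 0.030, 0.00095, 0.0024 and 0.0032, with ranges of 1.07-fold to 1.13-fold between libraries.

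Of 7 other BH3 genes 6 were detected, and among them Hrk stood close to Bbc3. Bnip3l, a mitophagy receptor, was highest at 39.0 CPM per kilobase, followed by Hrk at 32.3. Hrk encodes Harakiri, a BH3-only protein induced in neurons by trophic factor withdrawal, and had 3468, 3373 and 3502 reads. It thus had more reads than any of the 10 members in each library. Bik had no reads, which allows up to 0.16 CPM in a library, counting error only.

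Of 8 other BCL2-like genes only Bcl2l13 (5.54 CPM per kilobase) and Bcl2l12 (0.64) were detected. The survival genes Bcl2a1a, Bcl2a1b and Bcl2a1d, known mainly from blood cells, had 9, 1 and 12 reads over the 3 libraries and are near-identical copies whose reads are uncertain. Bcl2l14 and Bcl2l15 had 2 and 16 reads, and Bcl2l10 had none. All 6 mitochondrial partners were detected, led by the channel genes Vdac1 (134 CPM per kilobase) and Vdac3 (52.2), with the protease gene Oma1 lowest at 3.34.

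Downstream of the mitochondria, all 13 apoptosome and caspase genes were detected. Cycs, which encodes cytochrome c, had 2137, 2106 and 2194 reads, or 33.6 CPM per kilobase, a value made uncertain by processed copies of this gene elsewhere in the genome, and the executioner Casp6 was lowest at 0.93. Of 9 caspase inhibitors 4 were detected, led by Xiap (8.48) and Birc2 (8.23). Birc3 had 19 reads in all, and Naip1, Naip2, Naip5 and Naip6, near-identical copies with uncertain reads, had 11, 15, 7 and 1.

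The death receptor arm was expressed at low levels, with 9 of 12 genes detected and a median of 0.94 CPM per kilobase over all 12. The death receptor genes Tnfrsf21 (18.7 CPM per kilobase) and Tnfrsf1a (5.79) were highest. Casp8, the initiator caspase of this arm, was lowest, with 7, 5 and 9 reads. Fasl had 3, 10 and 3 reads and Tnfrsf25 had 18, 4 and 6. The adaptor gene Fadd was detected at 1.08 CPM per kilobase.

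All 13 upstream regulators were detected, at a median of 15.7 CPM per kilobase. Ddit3, which encodes the stress factor CHOP, was highest at 43.9, followed by the kinase gene Mapk9 at 29.3, and the p53 relative Trp73 was lowest at 0.68. Jun, which takes part in neuronal death after trophic factor loss, had 1639, 1427 and 1555 reads, highest in replicate 1 and lowest in replicate 2. Bcl2l1, Bbc3, Bax, Bcl2l11 and Bcl2l2 had this order too, but of these members only Bcl2l1 differed between libraries beyond counting error. Among the neuron markers, Tubb3 and Rbfox3 had this order and the others did not. By CPM, Map2, Stmn2 and Dcx were highest in replicate 2, and Mapt, Snap25 and Syn1 in replicate 3. How many of all genes share the order of Jun was not counted. The 3 genes of MCL1 turnover were all detected, with Huwe1 at 17.5, Fbxw7 at 12.4 and Usp9x at 10.9 CPM per kilobase.

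**Figure D4:**
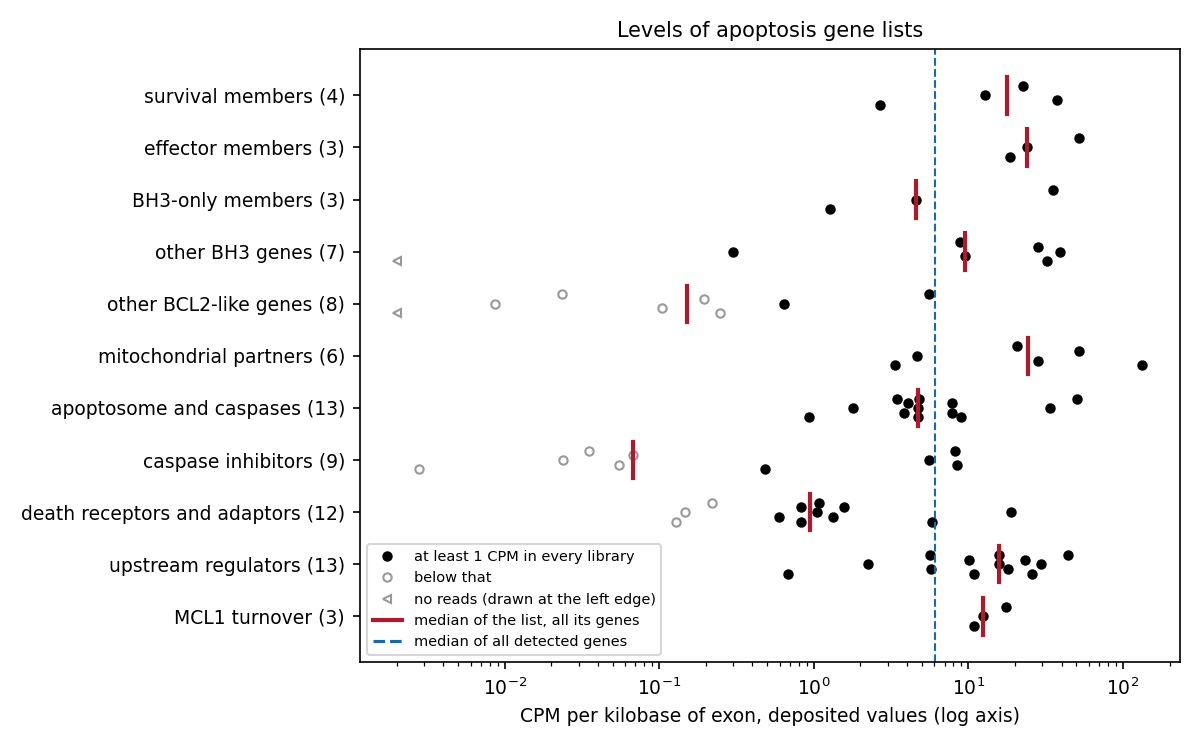
CPM per kilobase of exon (deposited values, log axis) of every gene of the 3 member groups and the 8 further lists, with the number of genes in brackets; filled points were detected, open points were not, left-pointing triangles had no reads, red bars are list medians and the dashed line is the median of all detected genes (6.11). The effector genes and the mitochondrial partners have the rightmost medians, and most other BCL2-like genes lie left of 1.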

How the data were processed

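Each library's file, as the authors deposited it, holds a log2 expression value for each gene. Per the submitters' processing notes, FastQC, HISAT2, featureCounts and DESeq2 were used on GRCm38; no source used here gives versions or settings. The values have the form of a regularized log, which pulls libraries together, so reads were recovered by inverting a ridge-penalised negative binomial fit with 6 fitted parameters: 99.95% of 77088 values lay less than 0.1 from a whole number (20% by chance), and refitting returned the log2 values to within 0.001 for 100% of genes. The 21897 rows at 0 in every library were taken as no reads. Exon and coding lengths came from GENCODE M21 by symbol (45224 rows matched), promoters from RefSeq. In pair ratios 0.5 was added to each level, and means of ratios, list levels and role shares are of deposited values. Variation was tested on genes averaging 10 reads or more (Python 3.11.15, SciPy 1.17.1), with the dispersion trend fitted in 20 abundance bins; the scripts were tested on simulated data.

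The members, lists and tests were chosen with earlier results of these data known. Named genes were all members, and of each further list the 2 highest, the lowest, those below 1 CPM in every library and those differing between libraries; further genes were named after their values were seen, and 1 gene under this rule is not reported here. Sampling noise alone did not account for the differences between any 2 libraries (chi-square per gene of 2.27 to 3.86), so all 3 were counted. Intervals and limits cover counting error only.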

Additional observations from a re-analysis of the deposited data

How the results depend on the processing

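Over all results 391 alternative values were computed, and 344 kept their side or size. Some could hardly move, such as levels on recovered reads, which derive from the same deposited values, so this count does not measure robustness. The longest annotated transcript and the coding length in GENCODE were added after seeing the data; the planned coding length of RefSeq proteins was not run, since no protein table was used here. With 5 added to each level in place of 0.5, Bax over Bcl2 was 2.88, Bcl2l1 over Bcl2 1.84, Bcl2l11 over Bbc3 −2.69 and Bcl2l11 over Bcl2 −0.30; with nothing added these were 4.26, 3.06, −4.80 and −1.09. Mcl1 over Bcl2l1 turned to −0.11 with the longest transcript and −0.083 with coding length, and Bax over Bcl2l1 to −0.34 without length scaling and −0.031 with coding length; the other 140 of 144 alternative pair ratios kept their direction, which leaving out a library could not change. The shares of survival, effector and BH3-only genes were 53.5%, 29.7% and 16.8% without length scaling, 36.1%, 45.8% and 18.1% with the longest transcript, and 46.1%, 31.4% and 22.5% with coding length. Of 70 alternative ranks of members, 19 moved, all of them under another length. Leaving out 1 library gave 334 to 1187 genes beyond counting error and 7 to 28 beyond the trend, against 1304 and 48 with all 3; the lowest of these came without replicate 2 and without replicate 1, respectively. For the members the first of these counts was 0 (without replicate 1, or without replicate 2) to 2 (without replicate 3) against 1, and 2 with total reads as size factors or with a mean of 50 reads or more, through Bbc3. No paired analysis was possible because all libraries belong to 1 group. Depth limits the genes with few reads: 3 reads stand for 0.16 CPM.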

Other observations

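Each member was set beside the genes of the further lists nearest to it in mean log2 level per kilobase over the 3 libraries. Bax (5.69) lay beside Vdac3 (5.71), and Mcl1 (5.22) beside Bnip3l (5.29) and Cycs (5.07). Bbc3 (5.15) lay beside Cycs and Hrk (5.02). Bak1 (4.59) and Bcl2l1 (4.49) both lay beside Mapk8 (4.53), Bak1 also beside Jun (4.68) and Bcl2l1 beside Opa1 (4.36). Bok (4.23) lay beside Tnfrsf21 (4.23) and Mapk10 (4.17), and Bcl2l2 (3.68) beside Fbxw7 (3.63) and Usp9x (3.44). Pmaip1 (2.20) lay beside Ppif (2.22) and Htra2 (2.23), Bcl2 (1.43) beside E2f1 (1.16) and Oma1 (1.74), and Bcl2l11 (0.34) beside Tradd (0.41) and Fadd (0.11). These are likenesses of level in 1 condition only.

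Exons of Bcl2 and Bcl2l2 overlap those of D630008O14Rik (558 bases, opposite strand) and Gm20521 (594 bases, same strand), and both of these neighbours are listed at 0 in every library, so how reads of the overlaps were assigned is uncertain.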
